A study of Mus musculus with 8 samples.

Results

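Gene deserts were taken as gaps of at least 1 Mb between neighbouring protein-coding genes of GENCODE vM1 on chromosomes 1 to 19 of the mouse genome (build mm9). There were 248 such gaps, with a median length of 1.52 Mb and a range of 1.01 to 7.20 Mb. The unit of measurement was a tile of 10 kb with no more than 10% undetermined bases. In all, 42383 of 239227 tiles (17.7%) lay wholly in a desert, and 79274 tiles (33.1%) that lay wholly inside a protein-coding gene served for comparison. Of the desert tiles, 40481 (95.5%) overlapped no annotated gene of any kind. Protein-coding genes are absent by definition, and the same share over other tiles is not given here. The deserts held 1092 annotated genes outside the protein-coding class of GENCODE, among them 355 pseudogenes, 27 lincRNAs and 62 gene segments of the antibody (immunoglobulin) loci.

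Chromatin came from subcutaneous isografts of Lewis lung carcinoma, a mouse lung tumor line, grown in C57BL/6J mice. LLC-NR tumors are sensitive to VEGF-Trap, a soluble decoy receptor that binds the angiogenic factor VEGF, and LLC-R tumors are the drug-resistant derivative, selected in mice under that treatment. Micrococcal nuclease released nucleosomes, and antibodies to the histone marks H3K4me3, H3K9ac, H3K27me3 and H3K36me3 gave 8 libraries, 1 for each mark and line. There were no replicates and no input library was used here, so the lines could not be compared by a test, the amount of DNA at a locus and the amount of a mark cannot be told apart, and tumor cells and cells of the host mouse cannot be told apart either.

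H3K4me3 marks promoters, H3K9ac marks active promoters and enhancers, H3K27me3 is the mark deposited by Polycomb repressive complexes, and H3K36me3 is laid down over the bodies of transcribed genes. Gene deserts are poor in G+C and often late replicating. Some of them surround genes for developmental transcription factors and hold distant enhancers of these genes, while others lie beside genes of neuronal adhesion molecules.

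The deposited data list the positions of peaks of 147 bp, the length of DNA on 1 nucleosome, without any height. The sequences under peaks of the LLC-R H3K4me3 library are single examples of the DNA that is counted. They need not be typical, and repeats within them, such as the run of CA in the fourth, were not annotated. The first and second come from the desert tiles with the most H3K4me3 peaks, the third from a desert tile between Steap1 and Zfp804b at the median of H3K4me3, and the fourth, chosen later for comparison, from a tile at the median of H3K4me3 inside the gene Pcdh15. They are read 5′ to 3′ on the plus strand of mm9, with CpG dinucleotides in capitals.
Desert beside Myc, chr15:61847495-61847641: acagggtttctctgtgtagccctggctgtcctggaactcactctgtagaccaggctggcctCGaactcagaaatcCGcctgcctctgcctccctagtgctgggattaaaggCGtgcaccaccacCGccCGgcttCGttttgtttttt
Desert beside Myc, in Pvt1, chr15:62034155-62034301: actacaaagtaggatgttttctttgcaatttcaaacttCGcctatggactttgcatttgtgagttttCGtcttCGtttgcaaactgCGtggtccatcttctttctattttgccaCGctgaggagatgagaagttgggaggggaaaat
Median desert tile, chr5:6251083-6251229: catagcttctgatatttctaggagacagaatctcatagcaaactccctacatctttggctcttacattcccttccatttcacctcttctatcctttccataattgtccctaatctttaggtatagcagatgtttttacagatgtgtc
Median tile inside Pcdh15, chr10:74046083-74046229: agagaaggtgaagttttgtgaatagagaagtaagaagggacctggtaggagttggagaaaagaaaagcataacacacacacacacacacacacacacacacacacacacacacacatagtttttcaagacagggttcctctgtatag
The first and second were chosen as the peaks with the most CpGs in their tiles, and had 6 and 5. The third was chosen for a G+C content near the median of desert tiles. It had 0 CpGs, as had the peak of the Pcdh15 tile, so the choice of peaks enters these counts. The whole tiles held 71, 117, 77 and 97 CpGs in the same order. Over all tiles, deserts held 55.3 ± 26.5 CpGs per tile (SD across tiles) against 89.9 ± 40.6 inside genes. Their G+C content was 38.4 ± 2.82% against 42.6 ± 4.40%. Desert sequence was also less often unique. The share of tile positions whose 32-base word occurs once in the genome averaged 81.4% in deserts and 89.7% inside genes.

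To see whether deserts carry fewer peaks than genes, the mean number of peaks per tile was compared within each library. The libraries held between 5660458 and 9101721 peaks. For H3K4me3, deserts held 20.4 ± 6.47 peaks per tile in LLC-NR and 20.9 ± 6.24 in LLC-R, against 23.4 ± 6.44 and 23.7 ± 6.04 inside genes (SD across tiles, which are not replicates). For H3K9ac, deserts held 29.7 ± 8.51 and 27.5 ± 7.97 peaks, against 37.0 ± 7.75 and 34 ± 7.22. Both active marks were thus less dense in deserts, and the difference was larger for the acetylation mark.

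For H3K27me3, desert tiles of LLC-NR held 25 ± 8.60 peaks and those of LLC-R 33.8 ± 8.56, against 28.8 ± 8.87 and 37.4 ± 7.13 inside genes. For H3K36me3, they held 22.4 ± 6.94 and 32.7 ± 8.19, against 29.3 ± 8.53 and 37.4 ± 7.18. The ratio of the desert mean to the mean inside genes was therefore lowest for H3K36me3 in LLC-NR, at 0.767. It was 0.801 for H3K9ac in LLC-NR, 0.808 for H3K9ac in LLC-R and 0.866 for H3K27me3 in LLC-NR. The others were 0.872 and 0.882 for H3K4me3 in LLC-NR and LLC-R, 0.874 for H3K36me3 in LLC-R and 0.905 for H3K27me3 in LLC-R. Deserts were below genes on all 19 chromosomes in all 8 libraries. The distributions overlapped widely, as the SDs show, and no desert tile held more than 50 peaks of any library although 68 would fit without overlap.

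Peaks also lay farther apart in deserts. The median distance between the midpoints of neighbouring H3K36me3 peaks in LLC-NR was 315 bp in deserts and 265 bp inside genes. In the LLC-R H3K27me3 library, which has the most peaks, the distances were 237 and 231 bp.

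G+C content was checked because it differs between deserts and genes. Desert tiles had fewer peaks than tiles inside genes in every one of the 9 bins of G+C content and in all 8 libraries. The ratio was nearest to 1 in the bin under 34% G+C, where it was between 0.884 for H3K36me3 in LLC-NR and 0.997 for H3K4me3 in LLC-R. In tiles of 48% G+C or more it was between 0.646 for H3K36me3 in LLC-NR and 0.894 for H3K27me3 in LLC-NR. This bin held only 155 desert tiles, against 9727 tiles inside genes. Its ratio was the lowest of the 9 bins in every library but H3K27me3 in LLC-NR. There the lowest ratio was 0.878, at 38 to 40% G+C. The bins hold all tiles, whether or not their sequence is unique. The part of uniqueness in this trend was not tested.

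**Figure D1:**
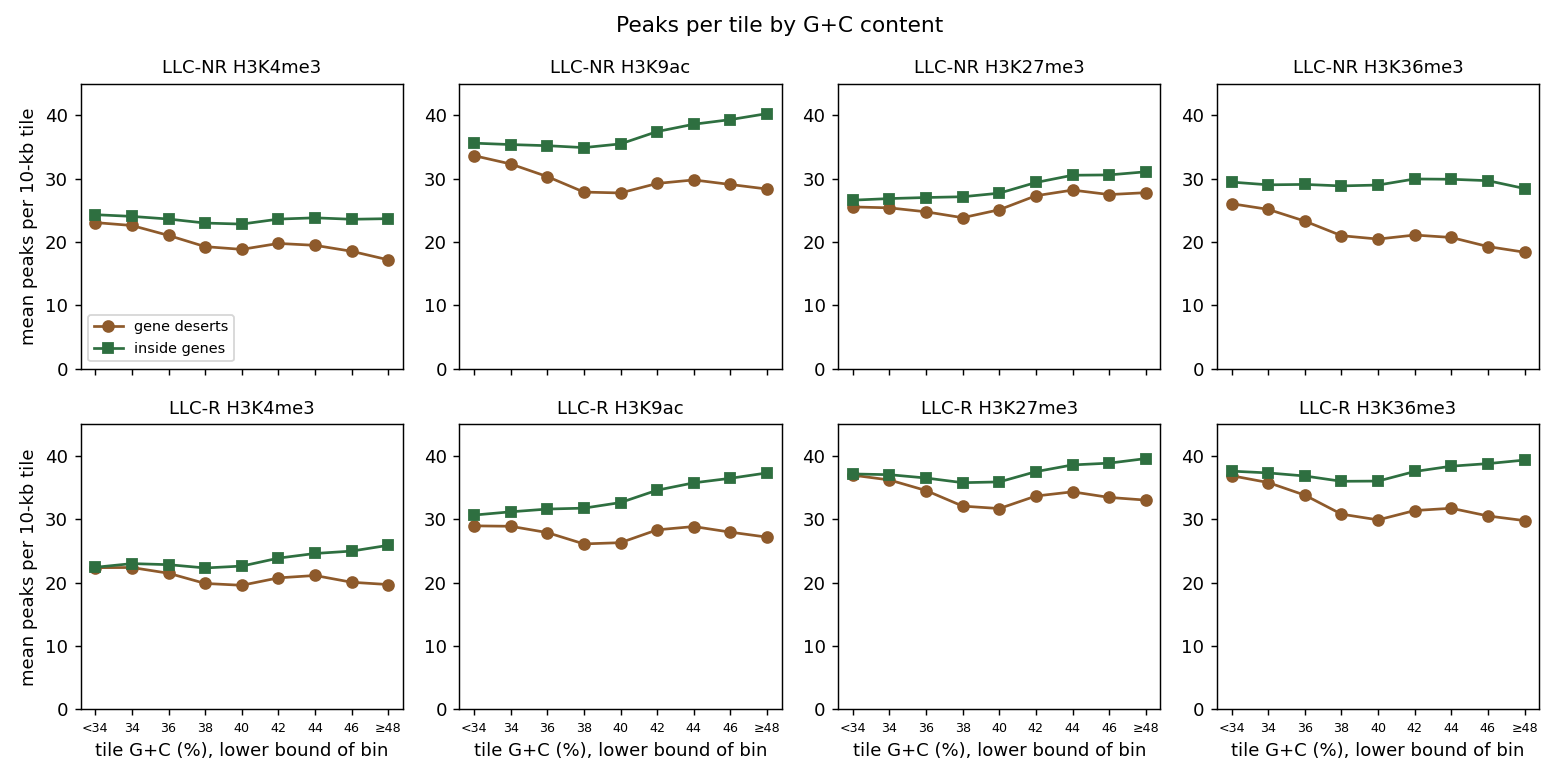
Mean peaks per 10-kb tile (y axis) in bins of tile G+C content in percent (x axis) for gene deserts (circles) and tiles inside protein-coding genes (squares), 1 panel per library. The desert line lies below the line of genes in every bin, with a ratio of 0.646 at 48% G+C or more for H3K36me3 in LLC-NR.

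The authors kept only reads that map to a single place, so the uniqueness of a tile bears on its number of peaks. The Spearman correlation between the number of peaks and the share of unique 32-base words over the 42383 desert tiles was between 0.65 and 0.81 in the 8 libraries. It is a description, since tiles share their library and neighbouring tiles share sequence. Among tiles with at least 80% unique words, called unique tiles here, 29111 lay in deserts and 69873 inside genes, and the ratio of deserts to genes there was 0.827 for H3K36me3 in LLC-NR, and 0.866 and 0.873 for H3K9ac in LLC-NR and LLC-R. The other 5 ratios were between 0.937 and 0.972. When tiles inside genes were in addition weighted to the G+C content of deserts, the ratios were 0.828 for H3K36me3 in LLC-NR, 0.901 and 0.925 for H3K9ac, 0.95 for H3K36me3 in LLC-R, 0.933 and 0.978 for H3K4me3 and 0.994 and 0.992 for H3K27me3 in LLC-NR and LLC-R, respectively. The H3K27me3 density of deserts was then almost that inside genes, while H3K36me3 in LLC-NR kept the largest deficit.

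The uniqueness of the sequence also moved with the emptiest tiles. Desert tiles under 0.5 times the mean of all tiles of the library numbered 4150 and 3589 for H3K4me3 in LLC-NR and LLC-R (9.79% and 8.47% of desert tiles), where the same holds for 8.11% and 7.7% of all tiles. The H3K9ac libraries had 4367 and 3994 such desert tiles (10.3% and 9.42%, background 7.87% and 7.47%). For H3K27me3 there were 5072 and 3220 (12% and 7.60%, background 8.38% and 6.42%), and for H3K36me3 3992 and 3047 (9.42% and 7.19%, background 7.81% and 6.53%). Deserts were above the background in all 8 libraries. Among the desert tiles, 2145 (5.06%) were this low in all 8 libraries at once, and they had a median of 28.7% unique words against 89.8% in the other desert tiles. Among unique desert tiles, such low tiles were rare. They numbered 226 (0.776%, background 0.614%) and 1 (background 0.000537%) for H3K27me3 in LLC-NR and LLC-R, 86 and 43 for H3K4me3 (background 0.253% and 0.0858%), 19 and 13 for H3K9ac (background 0.0413% and 0.0215%) and 44 and 0 for H3K36me3 (background 0.119% and 0%). A further extreme was formed by 202 desert tiles (0.477%) with 0 peaks in all 8 libraries, against 0.395% of tiles inside genes. The median of such tiles was 0% unique words in deserts and inside genes.

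Within deserts, density was lower farther from the flanking genes. In unique tiles, the H3K27me3 density of LLC-NR was 0.992 times the mean of all unique tiles in the first 50 kb next to a gene, 0.921 at 200 to 500 kb and 0.837 beyond 500 kb. In peaks per tile, these are 31.7 ± 6.89 in the first 50 kb (1606 tiles) and 26.7 ± 5.63 beyond 500 kb (12235 tiles). H3K27me3 in LLC-R moved over a smaller range, from 0.996 to 0.942. H3K9ac went from 0.935 to 0.869 in LLC-NR and from 0.942 to 0.867 in LLC-R, and H3K4me3 from 0.962 to 0.909 and from 0.959 to 0.935. Within each line H3K36me3 covered the smallest range, from 0.921 to 0.886 in LLC-NR and from 0.970 to 0.959 in LLC-R. The interior of deserts was thus poorest in the Polycomb mark and H3K9ac relative to their edges. The G+C content of these tiles was 39.8% next to genes and 36.9% beyond 500 kb, and its part in the difference was not tested.

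**Figure D2:**
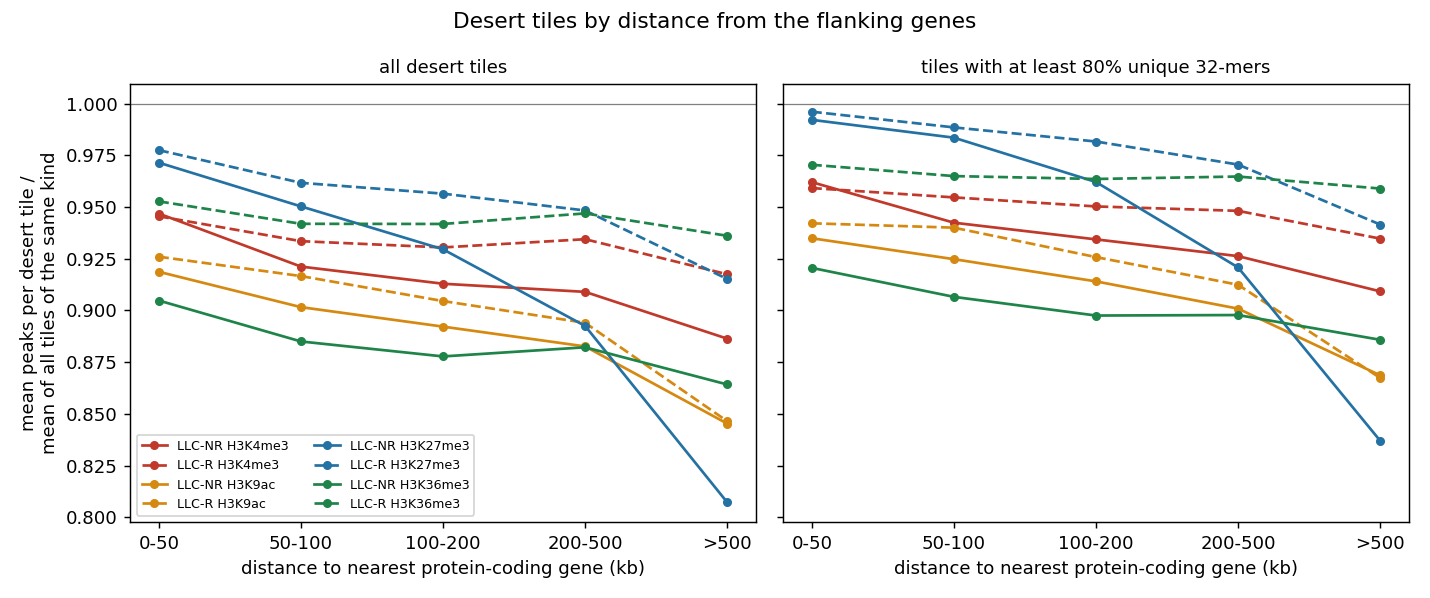
Mean peaks per desert tile divided by the mean of all tiles of the same kind (y axis) by distance to the nearest protein-coding gene in kb (x axis), for all desert tiles (left) and unique tiles (right). Solid lines are LLC-NR and dashed lines LLC-R, and the y axis does not start at 0. H3K27me3 in LLC-NR covers the widest range, from 0.992 to 0.837 in unique tiles.

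The genes inside deserts were compared by class. The 127 tiles that hold the start of a lincRNA or a processed transcript had 1.05 to 1.14 times the peaks of the average desert tile across the 8 libraries. In the 103 unique ones among them, the excess was 1.02 to 1.09 times, highest for H3K27me3 in LLC-NR, and their G+C content was 41.0%. The 340 tiles with the start of a pseudogene, a decayed gene copy, had 0.918 to 0.929 times the peaks of the average desert tile, and the unique ones among them were at 0.985 to 0.997. The 62 tiles with immunoglobulin gene segments, which GENCODE does not class as protein-coding, had 0.467 times the average H3K4me3 peaks in LLC-NR and 0.639 times the average H3K27me3 peaks in LLC-R, and the other 6 libraries lay between. These tiles had 56.7% unique words against 81.4% in all desert tiles, and the part of uniqueness in their low numbers was not tested. Starts of long non-coding genes were the only one of these 3 classes above the desert average, in all 8 libraries.

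Single deserts differed widely. Over 238 deserts with at least 50 unique tiles, the one with the fewest peaks on average over the 8 libraries lay between Pcdh17, a protocadherin of neurons, and Diap3, a formin that nucleates actin (chr14:84936868-87055173). Its density relative to the mean of unique tiles was 0.602 and 0.639 for H3K4me3 in LLC-NR and LLC-R, 0.670 and 0.698 for H3K9ac, 0.632 and 0.856 for H3K27me3, and 0.620 and 0.813 for H3K36me3. All 4 marks were low there in both lines. The next 4 were also on chromosome 14, namely Olfm4-Pcdh17, Slitrk1-Slitrk6, Slitrk5-Tpm3-rs7 and Pcdh9-4921530L21Rik, with means over the 8 libraries of 0.757, 0.770, 0.780 and 0.782. Slitrk and Pcdh genes encode neuronal transmembrane proteins that act at cell contacts and synapses. Unique tiles within 1 Mb on either side of these deserts were low as well. Their means, starting at Pcdh17-Diap3, were 0.747, 0.825, 0.779, 0.772 and 0.855. Tiles inside genes also held the fewest peaks on chromosome 14, in all 8 libraries. For H3K4me3 in LLC-R they held 18.9 per tile, against 23.7 over all chromosomes. For H3K36me3 in LLC-NR they held 23.9, against 29.3. Low density on chromosome 14 was thus not limited to deserts. Ranking on unique tiles was chosen after the values were seen.

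Ranked on all tiles, the lowest deserts were those of the least unique sequence. The gap between Gm17391 and Gm10330 on chromosome 12 held 0.340 H3K4me3 peaks per tile in LLC-NR and 0.433 in LLC-R, with 2.71% unique words. Its neighbour Gm17680-Gm17391 held 1.14 and 1.4 (8.91% unique words), and Gm12887-9530002B09Rik on chromosome 4 held 8.29 and 8.90 (33.4%). The longest gap, Gm5591-Gm16387 on chromosome 7 with 7.20 Mb, kept only 18 tiles because most of it is undetermined sequence. The other 4 of the 5 longest were Celf4-Pik3c3 (4.52 Mb), Olfm4-Pcdh17 (4.42 Mb), Cntnap5b-Cdh20 (4.28 Mb) and 4930555F03Rik-Aga (3.99 Mb), and their mean densities over the 8 libraries were 0.887, 0.737, 0.874 and 0.891 of the average tile.

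**Figure D3:**
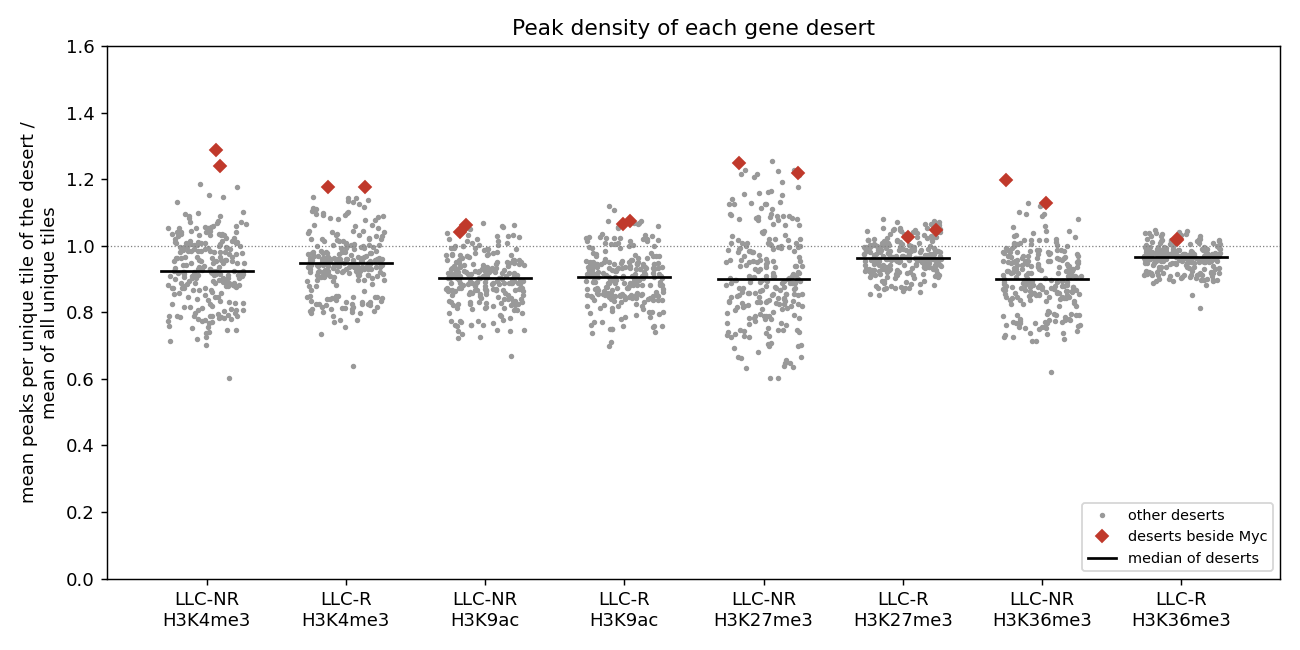
Density of each gene desert with at least 50 unique tiles, as mean peaks per unique tile divided by the mean of all unique tiles (y axis), in each of the 8 libraries (x axis). Points are deserts, spread sideways for legibility, black lines are medians and red diamonds the deserts on either side of Myc, which lead the LLC-NR H3K4me3 library at 1.29 and 1.24.

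At the other end, the densest desert was Myc-Gsdmc on chromosome 15, downstream of the Myc proto-oncogene, which encodes a transcription factor that drives cell growth. Over all its tiles it held 30.7 and 28.1 H3K4me3 peaks per tile in LLC-NR and LLC-R, 38.1 and 35.6 of H3K9ac, 37.8 and 39.5 of H3K27me3, and 32.4 and 37.0 of H3K36me3. Its mean density over the 8 libraries was 1.20 times that of the average tile. The next ones were Id2-Rnf144a on chromosome 12 at 1.17, beside Id2, an inhibitor of basic helix-loop-helix factors, and Gm16484-Nedd1 on chromosome 10, also at 1.17. These 3 exceeded the average tile in each of the 8 libraries. Ranked on unique tiles, Myc-Gsdmc stayed first at 1.14, followed by the desert upstream of Myc, A1bg-Myc, at 1.11, Gm9847-Trib2 and Etv1-Arl4a at 1.10 and C030005K15Rik-Atp2b1 at 1.09. Id2-Rnf144a, also at 1.09, and Gm16484-Nedd1 at 1.08 were then not among the first 5.

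The dense tiles beside Myc formed a block. Of the 100 desert tiles with the most H3K4me3 peaks, summed over both lines after division by the mean of each library, 63 lay in Myc-Gsdmc, 36 in A1bg-Myc and 1 in Ctnna3-Reep3. The tile with the most, chr15:61840001-61850000, overlaps no annotated gene and held 49 and 48 peaks of H3K4me3 in LLC-NR and LLC-R, 45 and 44 of H3K9ac, 42 and 45 of H3K27me3 and 45 and 45 of H3K36me3. The second, chr15:62030001-62040000, overlaps the lincRNA Pvt1 and held 47, 48, 49, 47, 45, 44, 50 and 47 peaks in the same order. The third, chr15:61470001-61480000, lies on the other side of Myc and held 45, 48, 48, 45, 46, 45, 46 and 44. Over all desert tiles, the medians were 21, 22, 31, 29, 26, 36, 23 and 35 in the same order. Tiles beside Myc were near 45 peaks in every library, whatever the mark.

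The limits of the block were set, after these tiles had been seen, where a running median of H3K4me3 density over 5 unique tiles fell under 1.4 times the mean. The block then ran from 61420001 to 62540000 on chromosome 15, over 1120 kb, of which 397 kb lie before the start of Myc and 723 kb after it. Myc is its only protein-coding gene, and 89 of its 91 unique tiles are desert tiles. The number of H3K4me3 peaks per tile was 43.6 ± 2.44 in LLC-NR (SD across 91 tiles), against 22.9 ± 4.23 in the 500 kb upstream (37 tiles) and 27 ± 6.23 in the 500 kb downstream (40 tiles). In LLC-R it was 42.7 ± 2.47, against 20.8 ± 3.64 and 22.3 ± 7.15. Since H3K4me3 set the limits, its excess over the flanks is a description. The lowest H3K4me3 tile of the block held 37 peaks (LLC-NR) and 35 peaks (LLC-R).

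The other 3 marks were dense in the same block. H3K36me3 was at 43.5 ± 2.26 peaks per tile in LLC-NR, against 25 ± 3.81 upstream and 30.1 ± 5.80 downstream, and at 44.3 ± 1.83 in LLC-R, against 35.5 ± 2.48 and 36.1 ± 3.94. H3K9ac was at 44.1 ± 2.06 peaks (LLC-NR) and 43.9 ± 1.99 (LLC-R), and H3K27me3 at 43.7 ± 2.1 and 44 ± 1.86. Relative to both flanks together, the block had 1.74 and 1.98 times the H3K4me3 peaks in LLC-NR and LLC-R, 1.58 and 1.24 times the H3K36me3 peaks, 1.17 and 1.30 times the H3K9ac peaks, and 1.18 and 1.11 times the H3K27me3 peaks. All 4 marks thus had more peaks inside the limits set by H3K4me3 than in the 500 kb on either side, in both lines. Limits were not called for the other 3 marks. The median was 43 or 44 peaks per tile in all 8 libraries, so the ratio was larger in libraries with fewer peaks elsewhere. Between 700 and 900 kb downstream of the start of Myc, H3K4me3 was at 1.23 and 1.35 times the mean in LLC-NR and at 1.07 and 1.20 in LLC-R, and beyond 900 kb it was at 1.01 or less in both.

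**Figure D4:**
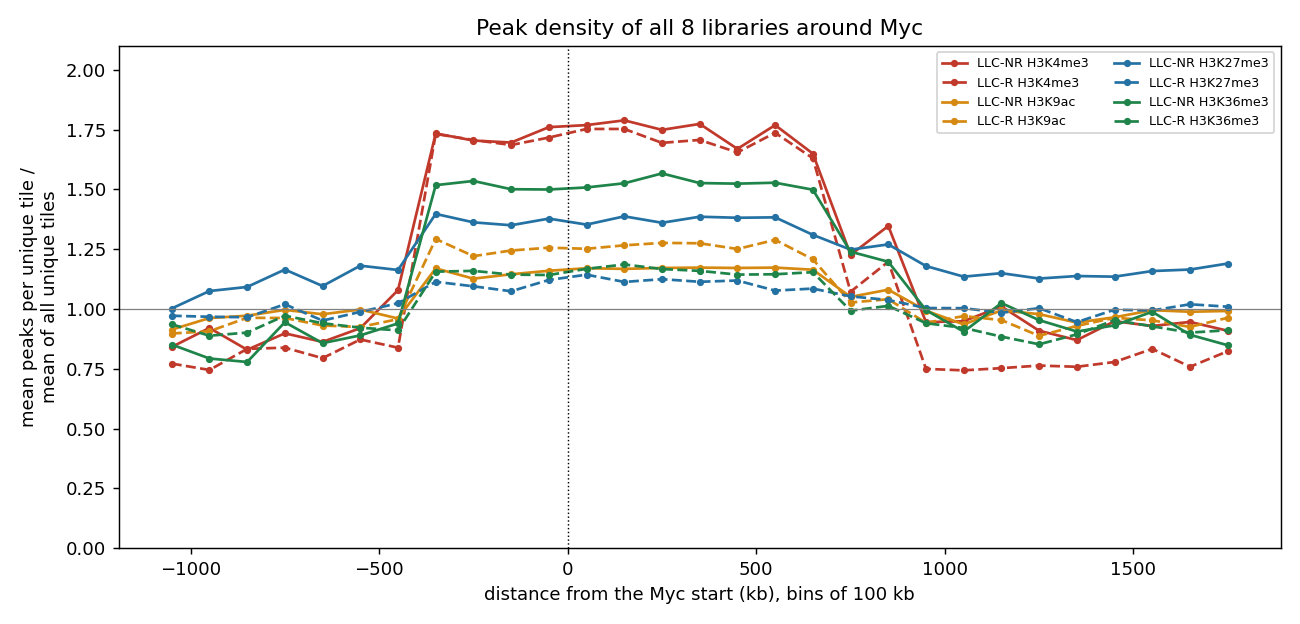
Mean peaks per unique tile divided by the mean of all unique tiles of the library (y axis) in 100-kb bins of distance from the start of Myc in kb (x axis), for bins that hold desert tiles. Solid lines are LLC-NR and dashed lines LLC-R, and the dotted line marks the start of Myc. In all 8 libraries the bins from 400 kb upstream to 700 kb downstream lie above the other bins shown, and H3K4me3 lies between 1.63 and 1.79 inside the block.

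Without the deserts on either side of Myc, the ratio of deserts to genes was little changed, with 0.869 and 0.880 for H3K4me3 in LLC-NR and LLC-R and 0.765 and 0.873 for H3K36me3.

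The lines were compared by the share of a library's own peaks that lay in deserts. This share for H3K4me3 was 15.2% (LLC-NR) and 15.7% (LLC-R), a log2 ratio of 0.038. It was 14.7% and 14.8% for H3K9ac (log2 ratio 0.012), 14.6% and 15.7% for H3K27me3 (0.11), and 14.8% and 15.8% for H3K36me3 (0.099). The share was higher in LLC-R for all 4 marks, by at most 0.11 on the log2 scale. Inside genes, the log2 ratios were 0.022, -0.0010, 0.044 and -0.089 in the same order, so that the share of H3K36me3 peaks was lower inside genes and higher in deserts in LLC-R, with a log2 difference of 0.19 between deserts and genes. The LLC-R libraries of H3K27me3 and H3K36me3 had 1.26 and 1.36 times the peaks of the LLC-NR libraries, and line and depth cannot be told apart. In unique tiles weighted by G+C, the sign for H3K27me3 relative to genes turned (-0.0036), and without division by the library's peaks that for H3K9ac turned (-0.11).

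Tiles that differed by at least 1.5-fold between the lines were counted among tiles with at least 10 peaks of the mark in both lines together, after division by the library's own peaks. For H3K27me3, 3428 desert tiles (8.20%) were higher in LLC-R and 25 (0.0598%) lower, against a background over all tiles of 5.88% and 0.0807%. For H3K36me3, 2194 (5.25%) were higher and 39 (0.0933%) lower, with a background of 4.08% and 0.208%. For H3K4me3, 2191 (5.26%) were higher and 853 (2.05%) lower, with a background of 4.14% and 2.38%. For H3K9ac, 310 (0.742%) were higher and 267 (0.639%) lower, with a background of 0.432% and 0.506%. The share of desert tiles higher in LLC-R was above the background for each mark. In unique tiles it was nearer to the background for H3K4me3 and H3K27me3. There, 1552 desert tiles (5.33%, background 4.58%) were higher in LLC-R for H3K27me3, 940 (3.23%, background 2.56%) for H3K36me3, 994 (3.41%, background 3.13%) for H3K4me3 and 67 (0.230%, background 0.0918%) for H3K9ac. Inside genes, the shares of unique tiles higher in LLC-R were 7.13% for H3K27me3, 2.04% for H3K36me3, 3.80% for H3K4me3 and 0.0902% for H3K9ac, so that deserts were below genes for H3K27me3 and H3K4me3. Lower in LLC-R were 414 unique desert tiles for H3K4me3 (1.42%, background 1.68%), 46 for H3K9ac (0.158%, background 0.0445%), 6 for H3K36me3 (0.0206%, background 0.127%) and 2 for H3K27me3 (0.00687%, background 0.0107%). For H3K9ac, deserts were thus above the background in both directions. Desert tiles held fewer H3K9ac peaks than all tiles, with means of 29.7 against 34.1 in LLC-NR and 27.5 against 31.3 in LLC-R. A fold cutoff is crossed more easily at low numbers, and the part of this in the excess was not tested.

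Desert by desert, 160 of the 238 were higher in LLC-R for H3K4me3, 137 for H3K9ac, 160 for H3K27me3 and 186 for H3K36me3. All 4 marks were higher in 85 deserts and lower in 21. Regions outside deserts were not counted in this way, so these counts of deserts have no background. The desert with the largest shift toward LLC-R, leaving aside the near-empty Gm17391-Gm10330 and Gm17680-Gm17391 (log2 means of 0.62 and 0.61 over the 4 marks), was Auts2-Gatsl2 on chromosome 5, beside Auts2, a gene of neurodevelopment. Its log2 ratios were 0.36 for H3K4me3, 0.27 for H3K9ac, 0.40 for H3K27me3 and 0.36 for H3K36me3, and its H3K4me3 peaks numbered 19.7 per tile in LLC-NR and 25.1 in LLC-R.

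Several deserts of chromosome 18 moved the same way. Cdh2-Dsc3, between N-cadherin and a desmosomal cadherin, had log2 ratios in unique tiles of 0.25, 0.16, 0.52 and 0.31 for H3K4me3, H3K9ac, H3K27me3 and H3K36me3. Celf4-Pik3c3 had 0.29, 0.19, 0.35 and 0.33. For whole chromosomes, the log2 ratios were taken in unique tiles, from densities relative to all unique tiles and not from shares of the library's peaks. The unique desert tiles of chromosome 18 were on average at 0.24, 0.15, 0.24 and 0.32. Tiles inside the genes of chromosome 18 were at 0.22, 0.073, 0.18 and 0.064, so the genes of that chromosome were higher in LLC-R as well. Deserts of chromosome 14 were at 0.31 for H3K27me3 and 0.27 for H3K36me3, and those of chromosome 17 were below 0 for all 4 marks.

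Toward LLC-NR, the largest shifts were in Tle4-Psat1 on chromosome 19, Myc-Gsdmc and Rgmb-BC002059 on chromosome 17. The H3K4me3 peaks of Tle4-Psat1 numbered 23.6 per tile in LLC-NR and 19.2 in LLC-R, a log2 ratio of -0.29, and its ratios for H3K9ac, H3K27me3 and H3K36me3 were -0.071, -0.22 and -0.073. Tle4 encodes a transcriptional co-repressor. Rgmb-BC002059, beside a co-receptor of bone morphogenetic proteins, was at -0.22, -0.094, -0.11 and -0.17. Myc-Gsdmc was at -0.12, 0.021, -0.27 and -0.25. These ratios are relative to the library's own peaks, and the numbers of H3K27me3 and H3K36me3 peaks per tile given above for Myc-Gsdmc were higher in LLC-R, whose libraries of these marks are larger.

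The genes at the edges of deserts were grouped by 2 lists. Of 47 genes for transcription factors, 12 flank 13 deserts (Bcl11a, Dach1, Irx1, Lmo4, Myc, Nr2f1, Nr2f2, Pou3f2, Sall3, Sox11, Sox2 and Zic1). Of 83 genes for adhesion and synapse proteins, 44 flank 51 deserts. The H3K27me3 density of LLC-NR in unique tiles was 1.04 ± 0.138 (SD across deserts) beside transcription factors, 0.822 ± 0.117 beside adhesion genes and 0.931 ± 0.137 in the other 174 deserts. In LLC-R it was 1.01 ± 0.0474 beside transcription factors and 0.934 ± 0.0454 beside adhesion genes. Deserts beside transcription factors thus had the most H3K27me3 on average, with ranges that overlapped. Without those beside Myc, the 11 others were at 1.01 ± 0.118 in LLC-NR and 1.002 ± 0.0497 in LLC-R. Their G+C content was 40.1% with or without Myc, against 37.1% beside adhesion genes, and its part in the difference was not tested.

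In LLC-NR the gap between the lists was smaller for the other 3 marks than for H3K27me3. In LLC-R it was larger for H3K9ac, and for H3K4me3 only with the deserts beside Myc included. H3K9ac was at 0.95 ± 0.0720 beside transcription factors and 0.859 ± 0.0690 beside adhesion genes in LLC-NR, and at 0.975 ± 0.0931 and 0.855 ± 0.0746 in LLC-R. H3K4me3 in LLC-R was at 1.01 ± 0.127 and 0.913 ± 0.0962. H3K36me3 in LLC-NR was at 0.941 ± 0.134 beside transcription factors and 0.867 ± 0.0844 beside adhesion genes, and H3K4me3 in LLC-NR at 0.985 ± 0.157 and 0.893 ± 0.0954. Without the deserts beside Myc, the transcription factor means of H3K36me3 and H3K4me3 in LLC-NR were 0.900 and 0.935. In LLC-R those of H3K4me3, H3K9ac and H3K27me3 were then 0.974, 0.957 and 1.002. Beside Sox11, a factor of neural progenitors, the densities were 1.15 for H3K27me3 and 1.01 for H3K36me3 in LLC-NR, and beside Lmo4 they were 1.15 and 1.02. Beside Dach1, a factor of eye and limb development, on chromosome 14, both were low at 0.796 and 0.761.

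The balance of H3K27me3 to H3K36me3 in each desert was computed as a log2 ratio, after the lower H3K36me3 of deserts had been seen. H3K27me3 exceeded H3K36me3 in 114 of 238 deserts in LLC-NR, in 107 in LLC-R and in 97 in both. Regions outside deserts were not counted, so these numbers have no background either. The largest ratio in LLC-NR was in Sall3-Galr1, beside a zinc finger factor of development, at 0.57, with 0.14 in LLC-R. Zfp516-Tshz1 was at 0.57 and 0.13. 4931429L15Rik-Cadm1, at 0.55 and 0.19, had the largest ratio of the 238 deserts in LLC-R. Cadm1 encodes a cell adhesion molecule but is not on the list of adhesion genes, so its desert counts among the others. The smallest ratio in LLC-NR was in Slitrk5-Tpm3-rs7, at -0.35 with -0.071 in LLC-R, followed by Slitrk1-Slitrk6 at -0.32 and -0.080. The signs of these 5 were shared between the lines, and the size was smaller in LLC-R, whose 2 libraries hold more peaks. Across the 238 deserts, the Spearman correlation of this ratio between LLC-NR and LLC-R was 0.90. Its correlation with G+C content was 0.75 (LLC-NR) and 0.63 (LLC-R), over deserts that share libraries and chromosomes.

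**Figure D5:**
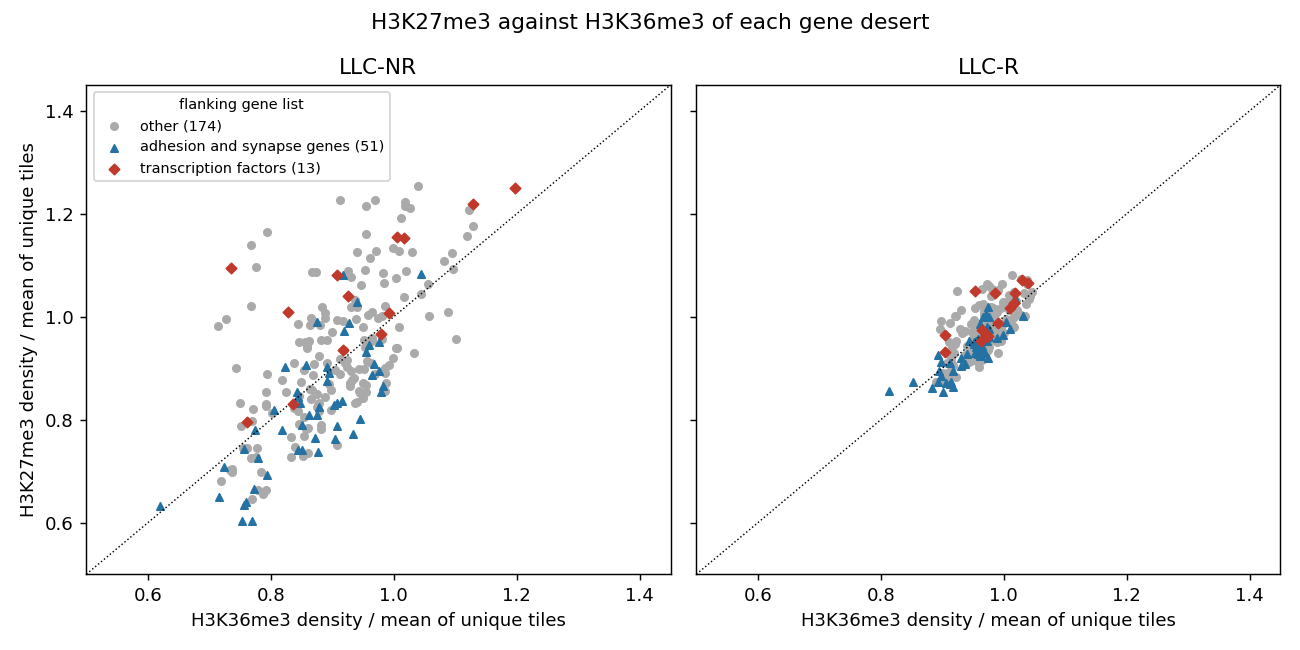
H3K27me3 density (y axis) against H3K36me3 density (x axis) of each gene desert with at least 50 unique tiles, both divided by the mean of unique tiles, in LLC-NR (left) and LLC-R (right). The dotted line marks equal values. Deserts beside listed transcription factors (red, 13) average 1.04 for H3K27me3 in LLC-NR and those beside adhesion and synapse genes (blue, 51) 0.822, and the points of LLC-R cover a smaller range.

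Tile by tile, every pair of marks went together in unique desert tiles. The Spearman correlations lay between 0.36 (H3K4me3 and H3K27me3 in LLC-R) and 0.68 (H3K9ac and H3K27me3 in LLC-NR). H3K27me3 and H3K36me3 went together in deserts, as the other pairs did, and not inside genes. The Spearman correlation between their peak numbers was 0.45 in either line over 29111 unique desert tiles. Over 69873 unique tiles inside genes it was -0.38 (LLC-NR) and -0.11 (LLC-R). Between the lines, the correlation of a mark with itself over unique desert tiles was 0.41 for H3K4me3, 0.61 for H3K9ac, 0.62 for H3K27me3 and 0.44 for H3K36me3. These are descriptions over tiles that share libraries, sequence composition and neighbours.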

How the data were processed

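The authors aligned reads to mm9 with Bowtie 0.12.7, retained reads with a single match, and ran the peak caller GeneTrack on each library by itself. Its settings are not given in the sources used here. The deposited files give only positions (chromosome and both ends of a peak), with no counts of reads, heights or strands. Every peak is 147 bp wide and none overlaps another of its library. No more than 7 peaks per library run past the end of a chromosome.

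A peak was counted in the tile of 10 kb that holds its midpoint. Genes came from GENCODE vM1, and NCBIM37 (the assembly behind mm9) gave the sequence. Density is the mean number of peaks per tile divided by that of all tiles, or of all unique tiles, of the same library. Unique tiles have at least 80% of positions whose 32-base word occurs once in the genome, on either strand. The read length is not given in the sources used here, so the word length is a choice. G+C weighting used bins of 1 percentage point. The lines were compared by the log2 ratio of shares of each library's own peaks. For single chromosomes the log2 ratio of densities relative to all unique tiles was used instead. There was 1 library per line and mark, so no p-value is given. Exact binomial (Clopper-Pearson) 95% intervals of shares cover counting error only, and for the H3K36me3 share of LLC-R peaks in deserts the interval was 15.81% to 15.86%.

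Deserts were named by their flanking genes. The rule took the 5 longest, the 3 lowest and 3 highest in mean density over the 8 libraries, and the 3 with the largest log2 ratio in each direction, among deserts with at least 50 tiles for all but the longest. Single tiles were the 3 desert tiles with the most H3K4me3 peaks. Deserts ranked on unique tiles, the block around Myc, the ratio of H3K27me3 to H3K36me3 and the chromosomes given for LLC-R against LLC-NR were chosen after values were seen. Members and lists were chosen with earlier results of these data known. Chromosomes 5, 15, 16, 18 and 19 were left out in 1 alternative. Sex chromosomes and gene expression were not analysed here. The counting code was tested on simulated data. Computations used numba 0.67.0, pandas 2.3.3, SciPy 1.17.1 and NumPy 2.4.6 under Python 3.11.15, with figures by Matplotlib 3.10.9.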

Additional observations from a re-analysis of the deposited data

How the results depend on the processing

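Values follow the order LLC-NR and LLC-R of H3K4me3, of H3K9ac, of H3K27me3 and of H3K36me3. The ratio of deserts to genes stayed below 1 under all 8 alternatives. It was 0.941, 0.945, 0.866, 0.873, 0.944, 0.972, 0.827 and 0.937 in unique tiles and 0.933, 0.978, 0.901, 0.925, 0.994, 0.992, 0.828 and 0.95 in unique tiles weighted to the G+C content of deserts. Weighting all tiles by G+C gave 0.871, 0.916, 0.836, 0.857, 0.912, 0.925, 0.771 and 0.889. Deserts of at least 2 Mb gave 0.854, 0.867, 0.776, 0.777, 0.802, 0.883, 0.754 and 0.866, and desert tiles at least 100 kb from a gene 0.868, 0.881, 0.797, 0.803, 0.855, 0.901, 0.764 and 0.873. With tiles assigned to genes by their centre the ratios were 0.844, 0.860, 0.795, 0.803, 0.865, 0.904, 0.765 and 0.871, and without chromosomes 5, 15, 16, 18 and 19 0.874, 0.884, 0.804, 0.809, 0.870, 0.903, 0.770 and 0.873. Leaving out desert tiles with a non-coding gene moved none of them beyond its counting interval. The log2 ratio of LLC-R to LLC-NR, in the order H3K4me3, H3K9ac, H3K27me3 and H3K36me3, changed sign under 2 alternatives. Without scaling by the library's peaks it was 0.034, -0.11, 0.44 and 0.54, and relative to genes in unique tiles weighted by G+C it was 0.068, 0.038, -0.0036 and 0.20. Relative to genes it was 0.017, 0.013, 0.063 and 0.19 in all tiles, 0.072, 0.037, 0.021 and 0.21 with G+C weights and 0.027, 0.015, 0.063 and 0.19 with genes by tile centre. It was 0.030, 0.012, 0.081 and 0.084 in unique tiles, 0.044, 0.00067, 0.18 and 0.11 in deserts of at least 2 Mb and 0.042, 0.011, 0.12 and 0.10 at least 100 kb from a gene. Desert tiles under 0.25 times the mean numbered 1039, 900, 1050, 968, 1327, 831, 1150 and 735, and unique desert tiles under 0.5 times the mean 86, 43, 19, 13, 226, 1, 44 and 0. At least 2-fold higher in LLC-R were 315, 24, 465 and 286 desert tiles and at least 2-fold lower 68, 31, 0 and 1 for the 4 marks. For the cutoffs of 0.25 times the mean and 2-fold, shares over all tiles are not given here. Those counts are therefore not set against a background. Among unique desert tiles, those at least 1.5-fold higher numbered 994, 67, 1552 and 940 and those at least 1.5-fold lower 414, 46, 2 and 6.

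No paired analysis was possible because each line and mark has 1 library and the labels carry no replicate numbers, and leaving out a library would leave none. Intervals of shares cover counting error only. The number of peaks has an upper limit in a tile, so that dense tiles of libraries with many peaks respond less than others. Without an input library, the mappability of a tile and its DNA content enter every value. The restriction to unique tiles in counts, profiles and single deserts, the H3K27me3 to H3K36me3 ratio and the block around Myc were chosen after seeing the data.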
